A study of Drosophila melanogaster with 12 samples.

Results

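Weakly paired windows are stretches of 20 kb on the autosomal arms 2L, 3L and 3R, chosen in untreated PnM cells. In them, contacts between the maternal and the paternal homolog were under 0.40 of the contacts within the homologs. On 3R, where the homologs are unequal, most of them were not under 0.40 on a second scale, given below. The weakly paired windows were selected on measured values, in fixed windows counted from the start of each arm in the dm3 assembly. In the 2 untreated Hi-C libraries, pooled, read pairs with both sides in the window and at least 1 kb apart were counted as thom, one side on each homolog, or as cis, both sides on the same homolog, with the maternal and paternal cis pairs summed. A window was called weakly paired where it held at least 200 cis pairs and its thom/cis was below 0.40. This gave 534 windows, which is 21.5% of the 2479 windows with at least 200 cis pairs and 14.1% of all 3775 windows of the 3 arms. The other 1296 windows held too few cis pairs to be judged, and the 1945 windows with enough cis pairs and thom/cis of 0.40 or more are called the other windows.

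PnM is a hybrid *Drosophila* line in which the 2 homologs come from different inbred strains, so that sequence variants tell them apart. It is a single clone grown from embryos, male and diploid, and every value here is that of this 1 clone. Hi-C was made from cells in 4 conditions with 2 replicates each: Slmb RNAi, Top2 RNAi, mock RNAi in which the dsRNA was replaced by water, and untreated wild type. The RNAi cells were treated on the first and on the third day and taken on the fourth. The labels number the replicates and do not say whether they came from separate cultures. The study's methods call the replicates of the RNAi treatments biological. The p-values measure the spread between these libraries only. Hi-C gives no transcript level, so the knockdown of Slmb and Top2 was not checked here.

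In *Drosophila* the homologs lie side by side in somatic cells, a state called homolog pairing, and how closely they lie differs from place to place along a chromosome. Slmb is the substrate-binding subunit of a ubiquitin ligase that marks the condensin II subunit Cap-H2, which works against pairing, for degradation. Topoisomerase II, encoded by Top2, passes DNA strands through one another and is known as a factor that promotes pairing in cultured cells.

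The untreated libraries held 37284329 and 38465767 read pairs, and the 6 RNAi libraries held between 10190412 and 12077016. A weakly paired window had a median of 426.5 cis and 126 thom pairs in the untreated pool, against 494 cis and 307 thom pairs in the other windows. In a single RNAi library the median fell to between 60.0 and 73.0 cis pairs and between 16.0 and 21.0 thom pairs, so that values of 1 window in 1 of these libraries are coarse. One arm has unequal homologs. In the weakly paired windows the maternal homolog gave 0.989 times as many cis pairs as the paternal one on 2L, 1.03 times on 3L and 1.86 times on 3R, and in the other windows of 3R it gave 1.94 times. The study's methods give as a possible explanation that some of the cells carry much of 3R from the mother only. Contacts between maternal copies are counted as cis here, so that the choice of windows and the knockdown sums of 3R are also given with 2 times the paternal cis pairs in place of all cis pairs, beside the values of 2L and 3L. Run lengths, the profiles at run edges and over separations, and thom/cis by distance are given for all cis pairs only.

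Of the weakly paired windows 127 lay on 2L, 15.9% of the windows with enough pairs on that arm. On 3L there were 100, which is 12.9%, and on 3R there were 307, which is 33.9%. The high share of 3R went with its excess of maternal pairs. With 2 times the paternal cis pairs as the denominator, 119 of the 127 windows of 2L and 85 of the 100 windows of 3L were still under 0.40, against 117 of the 307 windows of 3R. The median thom/cis of the 3R windows was 0.448 on this scale, and 0.302 for 2L and 0.319 for 3L. Chosen anew on this scale, 333 of 2351 windows were weakly paired, of which 298 were among the 534.

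The thom/cis values that chose the windows ranged between 0.0297 and 0.399, with a median of 0.317 and quartiles of 0.256 and 0.361. The median of the other windows was 0.633. Only 7 windows lay under 0.1, 56 under 0.2 and 220 under 0.3, so that most sat near the upper limit. In 434 windows, 81.3%, thom/cis was under 0.40 in each untreated library alone, and in 309, 57.9%, the upper bound of the exact 95% interval from the pair counts was under 0.40. These intervals cover counting error only. The windows just inside the limit were chr3L:10060001-10080000 with 0.399, chr3L:14360001-14380000 with 0.399 and chr2L:13060001-13080000 with 0.399. Just outside lay chr2L:11360001-11380000, chr3R:3760001-3780000 and chr3R:5200001-5220000, each with exactly 0.4. The untreated pool does not separate these 6 windows, whose exact intervals all span 0.40.

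The 5 windows with the lowest thom/cis all lay close to the end of 2L that adjoins the centromere. The lowest was chr2L:22460001-22480000, with 7 thom pairs beside 236 cis pairs, a ratio of 0.0297 (exact 95% interval 0.0118 to 0.0621). In the libraries that took no part in the choice this window had 1 and 2 thom pairs beside 57 and 50 cis pairs after Slmb RNAi, 2 and 1 beside 59 and 62 after Top2 RNAi, and 4 and 1 beside 66 and 56 in mock cells. All 6 of these libraries thus counted under 5 thom pairs in it. Its neighbours chr2L:22440001-22460000 and chr2L:22420001-22440000 had 16 of 224 and 24 of 312 untreated thom and cis pairs, ratios of 0.0714 and 0.0769. In the mock pool these 2 windows had thom/cis of 0.130 and 0.139.

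A second low stretch followed after a gap of windows on the same arm. There chr2L:22680001-22700000 had thom/cis of 0.0922 and chr2L:22700001-22720000 had 0.0534 in the untreated pool. Both were low again in libraries not used to choose them. The first had 0.0667 in the Slmb RNAi pool, 0.0294 in the Top2 RNAi pool and 0.0898 in the mock pool, and the second had 0.0581 in the Slmb RNAi pool, 0.0537 in the Top2 RNAi pool and 0.0805 in the mock pool. The maternal and paternal homologs gave similar numbers of cis pairs there, 212 and 200 in the first window and 282 and 280 in the second. Over the last 1 Mb of 2L, 8 of the 15 windows with enough pairs were weakly paired, and their median thom/cis was 0.0846.

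The mock libraries give a view of the same windows that the choice did not touch. Summed over the 534 windows, thom/cis was 0.315 and 0.314 in the 2 mock libraries, with a mean of 0.314 ± 0.00055 (SD, n = 2), against 0.618 and 0.626 in the other windows. In the untreated libraries, where the rule was applied, the weakly paired windows had 0.302 and 0.309 and the other windows 0.649 and 0.651, values that the rule fixes in part. The quotient of both sets was 0.510 and 0.502 in mock cells and 0.465 and 0.475 in untreated cells. By arm, the mean of the weakly paired windows was 0.330 in mock and 0.293 in untreated cells on 2L. It was 0.337 and 0.300 on 3L, and 0.303 and 0.311 on 3R. The sums over the 3 arms thus join higher mock values on 2L and 3L with a lower one on 3R. A choice on 1 library also gave a higher value in the next one: windows chosen on the first untreated library alone had 0.302 in that library and 0.324 in the second, and windows chosen on the second had 0.305 there and 0.315 in the first.

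In the mock pool, 445 of the 534 windows, 83.3%, lay under 0.40. The same held for 192 of the other windows, 9.87%, and for 25.7% of all 2479. The median of the weakly paired windows was 0.308 in the mock pool, with 10% of them under 0.197 and 10% over 0.428. For the other windows the median was 0.607. Only 6 weakly paired windows reached the median of the other windows, and the highest had 0.725. How well a window kept its place went with how low it had been. All 119 windows with untreated thom/cis under 0.25 were under 0.40 in the mock pool, as were 97 of the 101 windows between 0.25 and 0.3 and 123 of the 144 between 0.3 and 0.35. Between 0.35 and 0.4 it was 106 of 170, and in the class just above the limit, between 0.4 and 0.45, 91 of 192. The limit of 0.40 thus cuts through a continuous range of values.

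**Figure D1:**
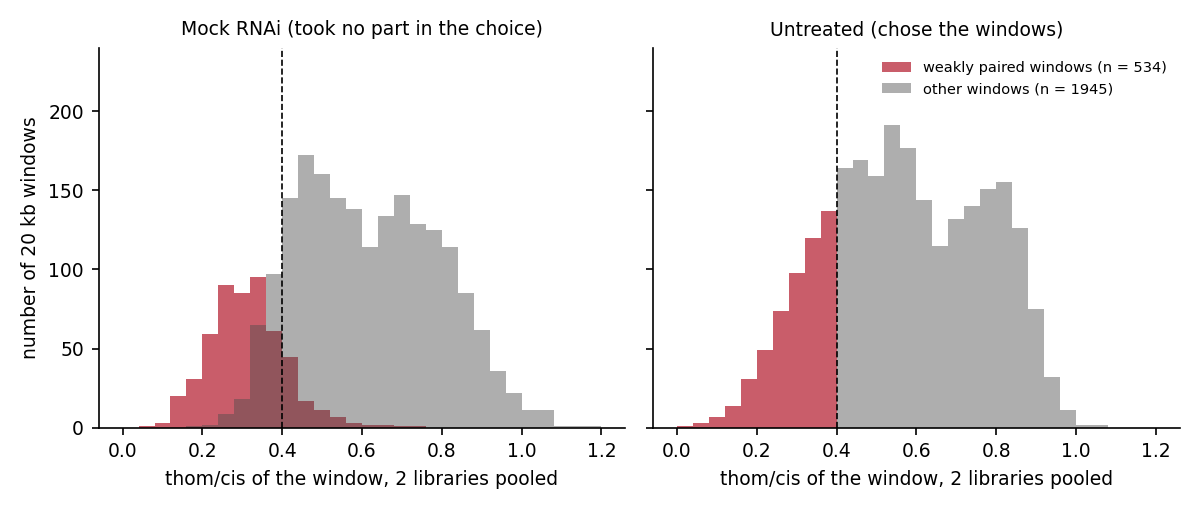
Histograms of thom/cis per 20 kb window in the mock RNAi pool (left) and in the untreated pool (right), with the number of windows on the vertical axis, the 534 weakly paired windows in red, the 1945 other windows in grey and a dashed line at 0.40; values beyond the axis are drawn in the last bar. In the mock pool, which did not choose the windows, 83.3% of the weakly paired and 9.87% of the other windows lie left of the line.

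Weakly paired windows lay next to each other. Windows are disjoint and pairs that join 2 windows were not counted in the rule, so neighbours share no read pair. Weakly paired windows had 801 adjacent positions that could be judged, and 532 of these, 66.4%, were weakly paired too. Adjacent weakly paired windows are counted once from each side, so that 532 is not a number of distinct windows. Around the other windows the share was 8.81%, and 21.5% of all windows were weakly paired. At a distance of 40 kb the share around weakly paired windows was 50.6%, at 100 kb 30.5% and at 200 kb 22.6%, where it was close to the 21.5% of all windows. The adjacent share was 65.2% on 2L, 70.9% on 3L and 65.5% on 3R, although the share of all windows there was 15.9%, 12.9% and 33.9%. At 200 kb the shares were 16.7% on 2L and 15.4% on 3L, above those of their arms, and 27.4% on 3R, under that of its arm. The shares over the 3 arms together thus mix arms that differ. At 500 kb the share over the 3 arms was 25.1% around weakly paired windows and 20.4% around other windows. No test of this clustering was made.

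The 534 windows formed 268 runs of consecutive windows. Of the runs 136 were single windows, 63 had 2 windows, 32 had 3, 23 had 4 and 14 were longer, up to 8 windows. Runs of 2 or more held 398 of the 534 windows, 74.5%. These lengths are lower limits for many runs, because 190 of the 268 runs, 70.9%, ended on at least 1 side at a window with too few cis pairs. When runs were joined across such windows, a choice made after seeing the data, 201 stretches remained, and the longest covered 420 kb of 3L, chr3L:18160001-18580000, with 12 weakly paired windows.

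**Figure D2:**
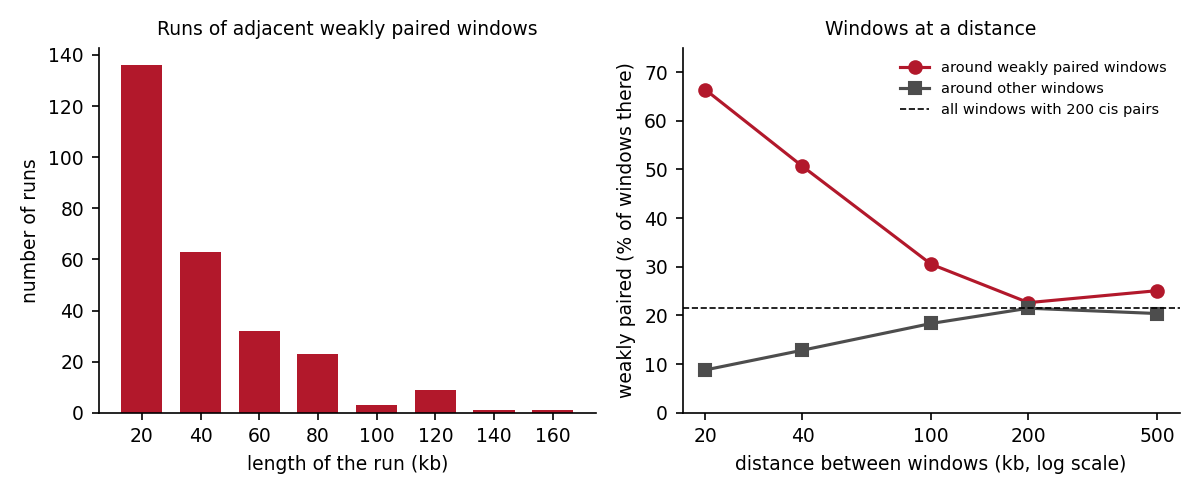
Left, number of runs of adjacent weakly paired windows by run length in kb. Right, percent of windows weakly paired at a given distance (kb, log scale) from a weakly paired window (red) or another window (grey). Only windows with at least 200 cis pairs are counted, and 66.4% of the nearest neighbours of weakly paired windows were weakly paired. At 200 kb the red point lies near the dashed line, the 21.5% of all windows of the 3 arms together, whose own shares differ.

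The longest run was chr3R:24200001-24360000, 8 windows and 160 kb long, with windows of too few pairs on both sides. Its thom/cis was 0.215 and 0.179 after Slmb RNAi, 0.212 and 0.213 after Top2 RNAi, 0.241 and 0.206 in mock cells and 0.222 and 0.212 in untreated cells. These libraries overlapped in value. The run of 7 windows, chr3L:11340001-11480000, had 0.243 and 0.279 after Slmb RNAi, 0.190 and 0.331 after Top2 RNAi and 0.304 and 0.328 in mock cells, beside 0.251 and 0.258 in untreated cells. Here both Slmb RNAi libraries were below both mock libraries, and the Top2 RNAi libraries lay on either side of them.

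There were 9 runs of 6 windows, 3 on 2L and 6 on 3R. Their mock thom/cis ranged between 0.243 and 0.343. The lowest untreated value of these was 0.199 at chr2L:11580001-11700000, which had 0.249 and 0.186 after Slmb RNAi, 0.248 and 0.219 after Top2 RNAi and 0.268 and 0.238 in mock cells. At chr2L:14400001-14520000 the untreated value was 0.218, and both Slmb RNAi libraries, with 0.224 and 0.236, were below both mock libraries, with 0.255 and 0.326. The run chr2L:4040001-4160000 went the other way in these libraries, with 0.384 and 0.425 after Slmb RNAi, 0.376 and 0.418 after Top2 RNAi and 0.326 and 0.352 in mock cells. Of the 6 runs on 3R, both flanks of chr3R:13080001-13200000 could be judged and had thom/cis of 0.419 and 0.421, only just above the limit, whereas the flanks of the run at chr2L:4040001-4160000 had 0.895 and 0.584.

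Windows that stood alone had the highest thom/cis of all run lengths in each of the 8 libraries, and runs of 5 or more had the lowest in 7. The exception was the second Top2 RNAi library, with 0.278 in runs of 5 or more and 0.271 in runs of 4. In the 2 untreated libraries the order is fixed in part, because their values chose the windows and set the run lengths. In mock cells thom/cis was 0.345 and 0.341 in the 136 windows that stood alone, 0.317 and 0.313 in runs of 2, 0.312 and 0.321 in runs of 3, 0.302 and 0.300 in runs of 4 and 0.284 and 0.282 in runs of 5 or more. The mock values of runs of 2 and of 3 overlapped, and in untreated cells runs of 3, with a mean of 0.316, lay above runs of 2, with 0.300. No test of this order was made.

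The rule places the edge of a run where untreated thom/cis crosses 0.40, so a step there is built in, also where other libraries read the same windows again. For runs of 3 or more windows, the outermost window of the run had a mean thom/cis of 0.324 in mock cells and the next window inwards 0.288. The first window outside had 0.475. Beyond it the mean stayed between 0.487 and 0.524 up to 200 kb from the edge, although 22 to 35 of the 101 to 114 windows at each of these distances were themselves weakly paired.

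**Figure D3:**
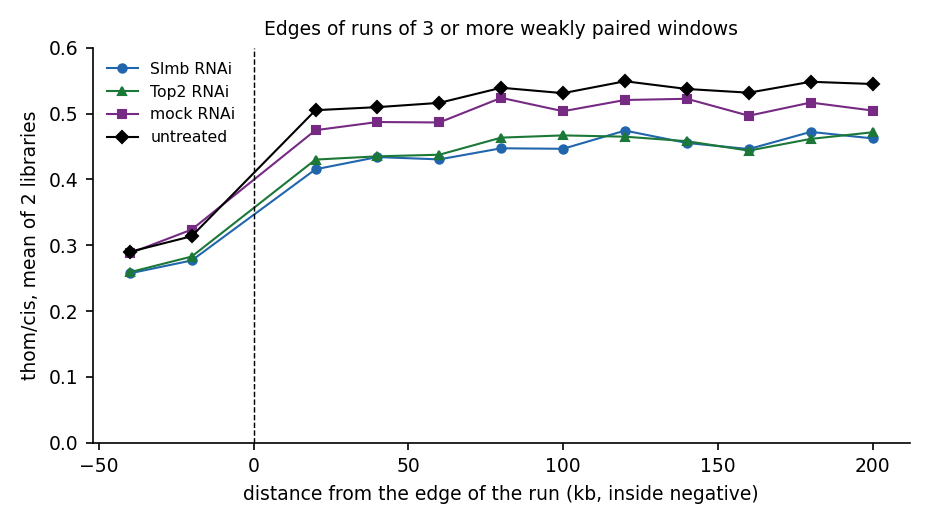
Mean thom/cis of the 2 libraries of each condition (vertical axis, Slmb RNAi blue, Top2 RNAi green, mock RNAi violet, untreated black) at the edges of runs of 3 or more weakly paired windows, against the distance in kb from the edge, negative inside. In mock cells the value is 0.324 in the outermost window of the run and 0.475 in the first window outside, a step that the choice of the windows builds in.

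Along the arms the weakly paired windows were spread unevenly. In stretches of 5 Mb, their share on 2L was between 4.55% (5 to 10 Mb) and 22.5% (15 to 20 Mb) before the last stretch, which had 28.4%. On 3L it was 8.99% and 7.07% in the first 2 stretches, counted from the telomere, 21.3% between 10 and 15 Mb, and 14.6% between 15 and 20 Mb. Only 26 windows of 3L beyond 20 Mb held enough pairs, and 3 of them were weakly paired. On 3R the share was between 23.4% and 38.8% in each stretch. The 9 windows of 2L between 5 and 10 Mb had the highest mock values of any stretch of that arm, 0.389 and 0.440.

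The low thom/cis was not the same at every separation inside a window. In mock cells it was 0.250 and 0.250 for pairs 1 to 2 kb apart, 0.283 and 0.285 at 2 to 5 kb, 0.329 and 0.328 at 5 to 10 kb and 0.392 and 0.386 at 10 to 20 kb. In the other windows it was 0.549 and 0.563 at 1 to 2 kb and 0.689 and 0.706 at 10 to 20 kb. The weakly paired windows also held relatively more of their cis pairs at 10 to 20 kb, 19.8% and 19.9% of them, against 16.2% and 16.1% in the other windows.

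Between windows the thom deficit became smaller with distance up to 500 kb. These pairs took no part in the rule. Pairs that joined adjacent windows of 1 run had thom/cis of 0.387 ± 0.00198 in untreated cells (SD, n = 2 libraries), against 0.750 ± 0.00296 for adjacent other windows. At 60 kb these values were 0.524 ± 0.00479 and 0.842 ± 0.00345. At 80 to 100 kb they were 0.559 ± 0.0139 and 0.857 ± 0.00367. A weakly paired window and another window, when adjacent, had 0.522 ± 0.00427, in between. At 220 to 500 kb, weakly paired windows of different runs had 0.689 ± 0.00895 in untreated cells and other windows 0.858 ± 0.00713. The deficit did not close and was no smaller farther away. Between 1 and 5 Mb, 2 weakly paired windows had 0.598 and 0.596 in the mock libraries and 2 other windows had 0.790 and 0.799. In untreated cells the values at 1 to 5 Mb were 0.667 and 0.664 against 0.858 and 0.857. Most weakly paired windows lie on 3R, and its maternal excess is part of the cis pairs in these ratios; its part in the difference was not tested.

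Contacts were also set against their expectation. For each arm a map of 20 kb windows was balanced on cis and thom pairs together, so that every window had the same total, and each contact was divided by the mean at its distance (observed over expected, where 1 is the average). Within runs, cis contacts at 80 to 100 kb were 1.88 ± 0.0700 times the expectation and thom contacts 1.46 ± 0.00481 times in untreated cells (SD, n = 2). Pairs of windows from different runs at that distance had 1.78 ± 0.0339 and 1.45 ± 0.0122. Pairs of other windows had 0.863 and 0.916. For adjacent windows of 1 run cis contacts were near the average, at 1.04 ± 0.00145, and thom contacts were low, at 0.640 ± 0.00638. At 40 kb, windows of 1 run had cis contacts at 1.33 and thom contacts at 0.935. At 60 kb both were above the average, at 1.59 and 1.21. Up to 200 kb, weakly paired stretches thus touched themselves more than the average from 40 kb in cis and from 60 kb in thom. Closer thom contacts were below the average. Contacts of a weakly paired with another window were above the average too. At 40 kb they were at 1.14 in cis and 1.07 in thom, and at 80 to 100 kb at 1.12 and 1.11. The excess was thus not only with weakly paired windows. At 40 kb the thom contacts within runs, at 0.935, were below these and below the 0.988 of 2 other windows.

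Contacts across single windows were also counted. Contacts between the left and the right neighbour of a weakly paired window, 40 kb apart, were 1.24 times the expectation in cis and 1.06 times in thom in the mock pool, over the 303 windows where both neighbours could be used. Over 1235 other windows they were 0.871 and 0.919. In the Slmb RNAi pool the weakly paired windows had 1.29 in cis and 1.08 in thom, and in the Top2 RNAi pool 1.205 and 1.01.

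Weakly paired windows met other weakly paired windows more than average up to about 1 Mb, and this differed between arms. At 0.2 to 1 Mb their contacts with each other were 1.29 times the expectation in cis and 1.26 ± 0.0131 times in thom in mock cells (SD of the 2 libraries), and 1.27 and 1.24 ± 0.00740 in untreated cells. By arm, thom contacts in mock cells were at 1.66 on 2L, 1.40 on 3L and 1.14 on 3R. At 1 to 5 Mb the value was below 1. There the thom contacts of weakly paired windows with each other were at 0.954 ± 0.00599 in mock and 0.941 ± 0.00433 in untreated cells, which is more than those of weakly paired with other windows, 0.878 ± 0.00013 in mock and 0.876 ± 0.00029 in untreated cells, and less than those of other windows with each other, 1.06 in both. By arm, thom contacts of weakly paired windows with each other at 1 to 5 Mb in mock cells were at 0.964 on 2L and 0.981 on 3R, above those with other windows, 0.888 and 0.902. On 3L they were at 0.795 in mock cells, below the 0.831 with other windows, whereas in untreated cells they were at 0.891, above 0.838. Because balanced totals are equal, a window with more contacts nearby has fewer far away by construction.

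**Figure D4:**
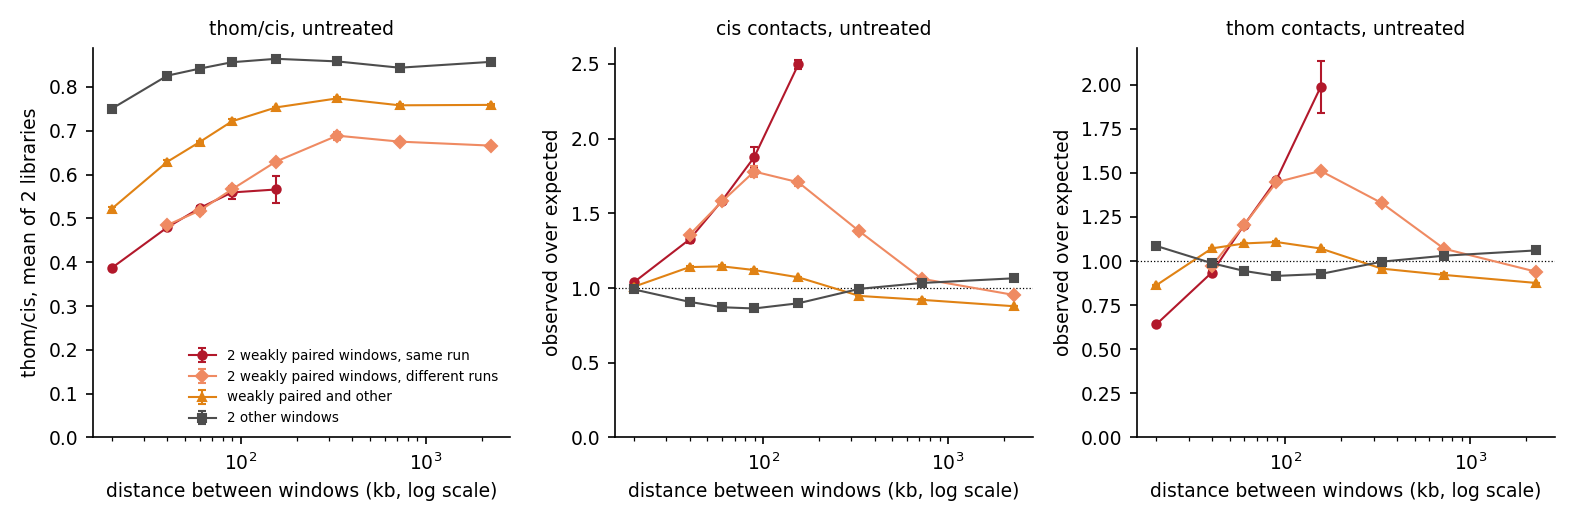
Untreated cells, by distance between 2 windows in kb (log scale; ranges drawn at their geometric mean). Left, thom/cis; middle and right, observed over expected for cis and thom contacts, with 1 as the average at that distance; lines stand for weakly paired windows of the same run (red), of different runs (salmon), a weakly paired with another window (orange) and 2 other windows (grey), bars for the SD of 2 libraries. Contacts of weakly paired windows of different runs reach 1.78 (cis) and 1.45 (thom) at 80 to 100 kb and lie under 1 in the farthest range.

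Window by window, balanced thom contacts at 0.2 to 5 Mb were divided by their expectation. This was done once for weakly paired and once for other windows of the arm as partners, and the 2 values were compared. In the mock pool 344 of the 534 weakly paired windows, 64.4%, had the higher value with weakly paired partners. The same held for 525 of 1945 other windows, 27.0%, and for 35.1% of all windows. In the untreated pool it was 351, 65.7%, against 449 other windows, 23.1%, and 32.3% of all. The median quotient of the weakly paired windows was 1.09 in both pools, so that the preference was slight. It was not particular to thom contacts. In cis it held for 365 weakly paired windows, 68.4%, in the mock pool, against 27.1% of the other windows, with a median quotient of 1.13. In the untreated pool it held in cis for 351, 65.7%, against 22.9%, with a median quotient of 1.09. Between arms, unbalanced pairs were counted whichever homologs they joined, and divided by the expectation from the totals of both windows. This value, where 1 is the average, is not on the scale of the quotient. For weakly paired windows of 2L with those of 3L it was 1.06 ± 0.00320 in mock and 1.05 ± 0.00886 in untreated cells (SD, n = 2). Contacts of 3L with 3R were at 1.06 ± 0.00936 in mock and 1.05 ± 0.00656 in untreated cells. For 2L with 3R they were at 1.05 ± 0.0111 in mock and 1.03 ± 0.00130 in untreated cells, and 1 of the Top2 RNAi libraries was below the average, at 0.995. Without the outer 1 Mb of each arm the untreated values were 1.04 for 2L with 3L, 1.03 for 2L with 3R and 1.05 for 3L with 3R.

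After Slmb RNAi thom/cis of the weakly paired windows was lower than in mock cells, and so was that of the other windows. Over the 534 windows it was 0.270 and 0.279 after Slmb RNAi, against 0.315 and 0.314 in mock cells. Both Slmb RNAi libraries lay below both mock libraries, and the ratio of the means was -0.20 on the log2 scale, a change of -12.8%. In the other windows it was 0.559 and 0.564 after Slmb RNAi and 0.618 and 0.626 in mock cells, a percent change of -9.74%. By arm the change of the weakly paired windows was -10.7% on 2L, -12.5% on 3L and -13.6% on 3R, and the other windows changed by -8.26%, -8.86% and -13.6%.

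After Top2 RNAi the weakly paired windows had 0.264 and 0.292, against 0.315 and 0.314 in mock cells. Both libraries were lower than mock, but they differed from each other by more than the second differed from the mock libraries. The change of the means was -0.18 on the log2 scale, or -11.5%. The other windows had 0.545 and 0.586 after Top2 RNAi, against 0.618 and 0.626 in mock cells, a change of -9.02%. By arm the weakly paired windows changed by -8.78% on 2L, -10.7% on 3L and -12.6% on 3R, and the other windows by -8.35%, -8.95% and -10.3%. With 2 libraries against 2 an exact permutation test cannot give a two-sided p below 0.33, so none is given for these sums.

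**Figure D5:**
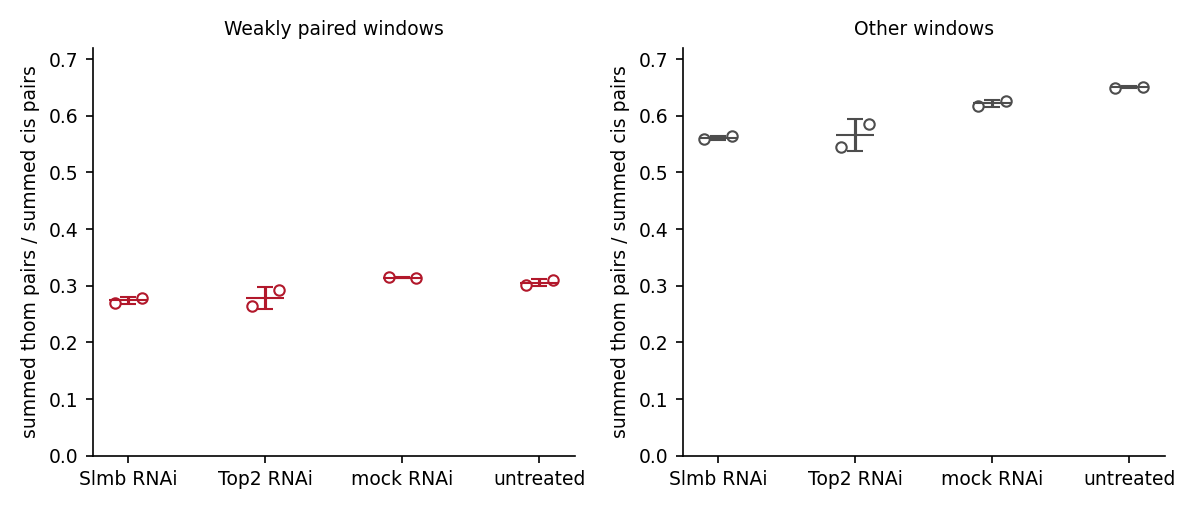
Summed thom pairs over summed cis pairs of the 534 weakly paired windows (left, red) and the 1945 other windows (right, grey) after Slmb RNAi, after Top2 RNAi, in mock RNAi and in untreated cells; circles are libraries, dashes their mean and bars the SD (n = 2). The weakly paired windows lie between 0.264 and 0.292 in the 4 knockdown libraries and at 0.314 to 0.315 in the mock libraries.

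The maternal share of 3R moved with the conditions. In the weakly paired windows of 3R the maternal homolog gave 2.18 and 2.16 times the paternal cis pairs after Slmb RNAi, 2.13 and 1.95 times after Top2 RNAi, 2.07 and 2.06 times in mock cells and 1.86 and 1.86 times in untreated cells. The part of this in the changes of 3R was measured with 2 times the paternal cis pairs: on this scale the weakly paired windows of 3R had 0.406 and 0.422 after Slmb RNAi and 0.387 and 0.414 after Top2 RNAi, against 0.470 and 0.458 in mock cells. Both knockdowns were again below mock. On 2L and 3L, where the maternal homolog gave between 0.975 and 1.06 times the paternal cis pairs in these windows, thom/cis was 0.297 and 0.292 on 2L and 0.288 and 0.302 on 3L after Slmb RNAi, against 0.328 and 0.331 on 2L and 0.328 and 0.346 on 3L in mock cells.

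Single windows were then tested one by one, with limma on log2((thom + 0.5)/(cis + 0.5)) over all 2479 windows, two-sided, with Benjamini-Hochberg adjustment. After Slmb RNAi none of the 534 weakly paired windows was called lower or higher than mock at an adjusted p of 0.05, and the share called among all windows was 0% in each direction. At an unadjusted p of 0.05, 44 weakly paired windows, 8.24%, were lower and 4 were higher, against 8.51% and 1.05% of all windows. The median change of the weakly paired windows was -0.20 (log2), beside -0.16 for all windows and -0.15 for the other windows, and the change was negative in 380 of the 534, 71.2%, against 71.0% of all windows. Both Slmb RNAi libraries were below both mock libraries in 169 weakly paired windows, 31.6%, against 32.2% of all windows, and above both in 40, 7.49%, against 6.74%. These shares are near those of all windows. When 1 library was left out and its group's spread taken from the other group, 5 weakly paired windows, 0.936%, were called lower without the second Slmb RNAi library, against 0.444% of all windows. It was 1 window, 0.187%, without the first Slmb RNAi library, against 0.202% of all, 1 without the second mock library, against 0.161% of all, and 0 without the first mock library, also among all. With only windows of at least 100 cis pairs on average tested, 1 of 110 weakly paired windows was called lower, 0.909%, against 0.964% of all 830. On 2L and 3L alone none of 227 was called lower, and 2 of all 1574 windows were.

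After Top2 RNAi none of the 534 was called in either direction, and again 0% of all windows. At an unadjusted p of 0.05, 26 were lower, 4.87%, and 7 higher, against 6.49% and 1.25% of all windows. The median change was -0.16, beside -0.14 for all windows, and the change was negative in 370 of the 534, 69.3%, against 69.9% of all windows. In 138, 25.8%, both Top2 RNAi libraries were below both mock libraries, against 31.3% of all windows, and in 41, 7.68%, above both, against 7.58%. Without the second Top2 RNAi library 3 weakly paired windows, 0.562%, were called lower, against 0.484% of all windows, and their median change was -0.23, beside -0.20 for all windows. Without the first Top2 RNAi library none was called lower, also among all windows, and the median change of the weakly paired windows was -0.08, beside -0.09 for all windows. The 2 knockdowns share the mock libraries and are not set against each other.

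The window tests had little power at these depths. In counts simulated at the depths of the Slmb RNAi and mock libraries, with 200 of 2479 windows changed, the test called 11% of windows lowered to a fold of 0.5 and 76% of those lowered to 0.25. For Top2 RNAi it called 22.5% and 83%. The simulated counts varied by counting error only, and the changed windows were drawn from all 2479. Weakly paired windows hold fewer thom pairs than the other windows, so these shares are not those of weakly paired windows. The median standard error of a weakly paired window was 0.36 in both comparisons, larger than either median change. A change of the size seen in the sums was thus not detectable in a single window.

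With none called, the windows with the smallest p are given. For Slmb RNAi the smallest was at chr3R:6860001-6880000, with 3 and 2 thom pairs beside 28 and 30 cis pairs after Slmb RNAi, ratios of 0.107 and 0.0667, against 10 and 9 beside 29 and 20 in mock cells, ratios of 0.345 and 0.450. The log2 change was -2.02 (limma 95% interval -2.92 to -1.11, adjusted p = 0.0697). Its untreated libraries had 0.219 and 0.248, so that the mock libraries stood above both. At chr3R:24740001-24760000 thom/cis was 0.167 and 0.357 after Slmb RNAi and 0.727 and 0.632 in mock cells (log2 change -1.41, limma adjusted p = 0.0981), beside 0.304 and 0.473 in untreated cells. At chr3R:5740001-5760000 it was 0.156 and 0.355 after Slmb RNAi and 0.826 and 0.471 in mock cells (log2 change -1.34, limma adjusted p = 0.173), beside 0.304 and 0.407 in untreated cells. All 3 windows lay on 3R and had mock values above 0.34. The rule chose them for low untreated values, and the pick by smallest p can favour high mock values. Mock values above untreated ones are thus built in, in part.

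For Top2 RNAi the smallest p was at chr3R:23980001-24000000, where thom/cis was 0.0882 and 0.0682 after Top2 RNAi, against 0.270 and 0.265 in mock cells, with 3 and 3 thom pairs against 10 and 9. The log2 change was -1.64 (limma 95% interval -2.63 to -0.65, adjusted p = 0.472). Its untreated libraries had 0.0867 and 0.118, close to the Top2 RNAi libraries, and the mock libraries stood above all 4. At chr3R:27460001-27480000 it was 0.180 and 0.141 after Top2 RNAi and 0.395 and 0.385 in mock cells (log2 change -1.26, limma adjusted p = 0.472), beside 0.329 and 0.393 in untreated cells. At chr3L:17720001-17740000 it was 0.333 and 0.359 after Top2 RNAi and 0.538 and 0.920 in mock cells (limma adjusted p = 0.472), beside 0.357 and 0.429 in untreated cells, where again the mock libraries stood above the untreated ones. In each of these windows the knockdown libraries did not overlap the mock libraries, and none passed the adjustment. Here too, low untreated values come from the rule and high mock values can come from the pick by smallest p.

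Runs gave more pairs per value. The 37 runs of 4 or more windows were set beside all 414 stretches of 4 adjacent windows with enough cis pairs, weakly paired or not, a choice made after seeing the data. The pooled thom/cis was lower after Slmb RNAi than in the mock pool in 31 of the 37 runs, 83.8%, against 87.2% of all stretches, and after Top2 RNAi in 31, against 86.2%. Both Slmb RNAi libraries lay below both mock libraries in 20 runs, 54.1%, against 48.8% of all stretches, and above both in 2, 5.41%, against 2.17%. Both Top2 RNAi libraries lay below both mock libraries in 13 runs, 35.1%, against 49.5%, and above both in 4, 10.8%, against 3.38%. No test of these shares was made. After centring each library on its median window the median change of the weakly paired windows was -0.02 after Slmb RNAi and -0.01 after Top2 RNAi.

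More windows fell under 0.40 after the knockdowns, in both sets. Of the weakly paired windows 491, 91.9%, were under 0.40 in the Slmb RNAi pool and 478, 89.5%, in the Top2 RNAi pool, against 445 in the mock pool. Of the other windows it was 404, 20.8%, after Slmb RNAi and 360, 18.5%, after Top2 RNAi, against 192 in the mock pool. Over all windows the shares were 36.1% after Slmb RNAi, 33.8% after Top2 RNAi and 25.7% in mock cells. The long-range thom contacts of weakly paired windows with each other at 1 to 5 Mb were at 0.977 ± 0.00813 of the expectation after Slmb RNAi and 0.967 ± 0.00695 after Top2 RNAi, against 0.954 ± 0.00599 in mock cells (SD, n = 2).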

How the data were processed

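The authors trimmed reads, aligned them with bwa mem 0.7.15 to both haplotypes of dm3, kept pairs assigned to 1 homolog on each side, and removed duplicates. In the deposited lists each pair has 2 positions, 2 strands and 2 mapping quality scores as the aligner gave them. They hold no normalized values. RNA-seq libraries of the series were not analysed here, and no annotation of this build was used, so that windows are given without genes. Pairs were counted here per 20 kb window with Python 3.11.15, numpy 2.4.6 and pandas 2.3.3, with no filter on the mapping quality score. Intervals are exact (Clopper-Pearson) on thom among cis and thom pairs, at 95%. Knockdowns were compared with mock by limma 3.58.1 in R 4.3.3, with a pseudocount of 0.5 and a trend in the prior variance, and the step was tested on simulated data. Maps were balanced by iterative correction without the main diagonal.

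The windows and the comparisons were chosen with earlier results of these data known. The regions named are the 5 lowest windows, the longest runs, the 3 windows on each side of 0.40 and, for each knockdown, the 3 with the smallest p where none was called; the rule asked for the 5 longest runs, and a tie of 9 runs of 6 windows is given by range, with examples picked after their values were seen. Each library was deposited alone, replicates were pooled here only where stated, and alternatives covered separation, strand, mapping quality, cis minimum, grid, arms, denominator, pseudocount, weights, centring, a replicate block and leaving out each library.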

Additional observations from a re-analysis of the deposited data

How the results depend on the processing

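The number of weakly paired windows, 534, was 308 when pairs on the same strand alone were counted, 82 with a mapping quality of at least 30 on both sides, 290 with at least 400 cis pairs, 227 on 2L and 3L alone and 333 with 2 times the paternal cis pairs. The first 3 settings leave fewer windows with enough pairs, 1533, 571 and 1535. The share of these that was weakly paired was 20.1% for same-strand pairs, 14.4% at the higher mapping quality and 18.9% with 400 cis pairs, against 21.5%. Other settings gave between 452 and 684. Of the 308 same-strand windows 266, and of the 82 at the higher mapping quality 62, were among the 534. The share under 0.40 in the mock pool, 83.3%, was 82.1% at a separation of at least 2 kb, 75.6% for same-strand pairs, 73.2% at the higher mapping quality, 80.3% and 83.1% with 100 and 400 cis pairs, 81.1% in windows shifted by 10 kb, 78.0% on 2L and 3L and 74.2% with 2 times the paternal cis pairs. Without 1 mock or untreated library it was between 79.0% and 81.9%. Mock thom/cis of the windows, 0.314, was 0.318 at a separation of at least 2 kb, 0.327 for same-strand pairs, 0.326 at the higher mapping quality, 0.317 with 400 cis pairs, 0.321 in shifted windows, 0.333 on 2L and 3L, 0.340 with 2 times the paternal cis pairs, and between 0.314 and 0.319 with 1 library left out. The cause of these shifts was not tested.

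Long-range thom contacts between weakly paired windows, at 0.941 of the expectation, were at 0.985 in raw counts, 0.928 on 2L and 3L, 0.895 for runs of 2 or more and 0.932 at the higher mapping quality, and between 0.938 and 0.944 with 1 untreated library left out. All stayed under 1.

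Of the weakly paired windows, 1 of 110 was called lower after Slmb RNAi when only windows with a mean of at least 100 cis pairs were tested (8 of 830 among all windows), and between 0 and 5 with 1 library left out (between 0 and 11 of 2479 among all). For Top2 RNAi it was between 0 and 3 (between 0 and 12 among all). A lone library was assumed to vary like the other group. With a replicate block 0 weakly paired windows were called in either comparison, and over all windows 1 was called lower after Slmb RNAi, and 6 lower and 2 higher after Top2 RNAi. The labels share only numbers: the correlation over windows between the replicate differences of knockdown and mock was -0.0058 for Slmb RNAi and 0.0238 for Top2 RNAi. Among all windows, weights by pair counts gave 6 lower after Slmb RNAi and 3 after Top2 RNAi, none of them weakly paired. Depth limits the tests of single windows: a weakly paired window had a median of 60.0 to 73.0 cis pairs in an RNAi library.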
